A study of Mus musculus with 7 samples.

Results

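The transcripts of 10 tight junction genes were examined in subcutaneous tumors of mouse pancreatic ductal adenocarcinoma (PDA) cells, with and without editing of *Krt19*. The genes were 8 claudins (*Cldn1*, *Cldn2*, *Cldn3*, *Cldn4*, *Cldn7*, *Cldn12*, *Cldn18* and *Cldn23*), occludin (*Ocln*) and zonula occludens-1 (*Tjp1*), each taken by its symbol from the table of 38026 genes, in which all 10 were present. RNA was sequenced from 7 whole tumors, 4 formed by cells carrying a scrambled guide RNA (sgScramble, tumors 1 to 4) and 3 by cells whose guide RNA targeted *Krt19* (sgKrt19, tumors 5, 6 and 8). Both groups came from the line named 1242 KPC, a PDA line from a mouse model with pancreas-directed Cre, and both carried lentiviral Cas9. The tumors grew in C57BL/6 mice, received no treatment and were taken 2 weeks after inoculation. Per the study's methods the mice were bought at 6 weeks old and kept for 2 weeks before use. The methods describe both mixed edited populations and single-cell clones without saying which formed these tumors, so all sgKrt19 tumors may share 1 clone. Each library is 1 tumor, and its values are read counts per gene that the authors divided by a size factor, called normalized read counts here.

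Tight junctions seal the space between neighboring epithelial cells. Claudins are membrane proteins whose strands set which ions and molecules pass, occludin and its relatives sit in the same strands, and the zonula occludens proteins tie the strands to actin from inside the cell. Claudins differ in what they let through: claudin-2 forms channels for cations and water, whereas claudin-1, claudin-3, claudin-4 and claudin-18 are counted as sealing claudins. Claudin-18 is a gastric and lung claudin that is absent from normal pancreas and appears in pancreatic neoplasia, and lung and stomach use different first exons of its gene, which counts per gene do not separate.

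The edited gene differed between the groups as the labels say. *Krt19*, an intermediate filament keratin of simple epithelia, was between 17841 and 27618 normalized read counts in the sgScramble tumors and between 1606 and 2470 in the sgKrt19 tumors, 8.73% of the control mean. Libraries held 40781199 to 44972100 reads, and mitochondrial genes took 3.02% to 4.74% of them. Over the 21322 genes tested, 34.0% passed an adjusted p under 0.05 (limma with Benjamini-Hochberg adjustment), 17.9% as higher and 16.0% as lower in sgKrt19 tumors. With scaling by library size alone in place of the authors' size factors, the median log2 fold change of all genes was −0.21, and the genes that were higher made up 27.7% of the calls in place of 52.8%. RNA of other tissues moved with the groups. All 12 skeletal muscle markers rose in sgKrt19 tumors, and their summed value was 26453 to 37828 there against 373 to 3533 in sgScramble tumors. All 10 leukocyte markers also rose (summed 20850 to 28357 against 11635 to 15874), as did 6 of 11 endothelial markers (8630 to 10354 against 5883 to 8058). None of 12 fibroblast markers passed limma's test, 1 had an unadjusted p under 0.05, and edgeR's quasi-likelihood test called 1 (summed 127845 to 149868 against 117147 to 267282). The part of these cells in the differences given here was not tested. In whole tumors, fewer cells of a type and less RNA per cell cannot be told apart.

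The 10 genes lie apart in the mouse genome (GRCm38, GENCODE M21), and the table's values count reads over whole genes. *Cldn18* spans chr9:99689461-99717267 on the minus strand, *Cldn12* chr5:5489537-5514958 on the minus strand and *Cldn2* chrX:139800828-139811386 on the plus strand. *Ocln* lies at chr13:100496507-100552718 and *Tjp1* at chr7:65296165-65527781, both on the minus strand. *Cldn4* (chr5:134945119-134946934, minus) and *Cldn3* (chr5:134986214-134987472, plus) are neighbors, 39280 bases apart with no annotated gene between them. *Cldn7* is at chr11:69964779-69967885 on the plus strand, *Cldn1* at chr16:26356642-26371841 and *Cldn23* at chr8:35824712-35826559, both on the minus strand. Exons of another gene overlapped only those of *Cldn3*, over 3.18% of its exon length and on the opposite strand.

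RefSeq start sites on GRCm38.p6 were found for 9 of the 10 genes, 14 starts in all, and the 250 bases upstream of each were searched on both strands for 7 short motifs. The motifs were the E box CAGGTG that Snail and Zeb factors bind, the general E box CANNTG that contains it, the AP-1 motif TGANTCA, the grainyhead motif AACCNGTT, the TATA box TATAAA, the CDX motif TTTATG and the GATA motif AGATAA. Of 32817 promoters of the same length, CAGGTG is in 17.22%, CANNTG in 66.22%, TGANTCA in 6.75%, AACCNGTT in 1.78%, TATAAA in 12.37%, TTTATG in 10.77% and AGATAA in 9.99%. The promoters of the 2 genes that passed the test and of the most abundant claudin, and 1 *Ocln* promoter, are shown 5′ to 3′ on the strand of the gene, with the motifs other than CANNTG in capitals.
*Cldn18*, upstream start, chr9:99717268-99717517, minus strand: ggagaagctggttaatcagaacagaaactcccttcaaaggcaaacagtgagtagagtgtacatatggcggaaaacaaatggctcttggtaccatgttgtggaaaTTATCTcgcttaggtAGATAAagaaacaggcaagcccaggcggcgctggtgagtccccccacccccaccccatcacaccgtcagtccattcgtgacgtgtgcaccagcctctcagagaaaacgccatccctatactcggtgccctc
*Cldn18*, downstream start, chr9:99710064-99710313, minus strand: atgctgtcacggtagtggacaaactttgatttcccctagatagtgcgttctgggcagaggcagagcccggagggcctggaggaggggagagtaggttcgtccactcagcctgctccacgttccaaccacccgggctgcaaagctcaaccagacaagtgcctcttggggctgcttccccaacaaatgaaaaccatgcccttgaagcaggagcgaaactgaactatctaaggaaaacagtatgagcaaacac
*Cldn12*, most upstream start, chr5:5514977-5515226, minus strand: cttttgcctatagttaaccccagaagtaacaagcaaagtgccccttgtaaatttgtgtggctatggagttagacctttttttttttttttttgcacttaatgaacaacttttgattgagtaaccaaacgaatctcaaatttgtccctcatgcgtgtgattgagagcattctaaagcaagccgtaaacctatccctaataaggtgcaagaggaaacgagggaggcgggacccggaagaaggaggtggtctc
*Cldn2*, chrX:139800558-139800807, plus strand: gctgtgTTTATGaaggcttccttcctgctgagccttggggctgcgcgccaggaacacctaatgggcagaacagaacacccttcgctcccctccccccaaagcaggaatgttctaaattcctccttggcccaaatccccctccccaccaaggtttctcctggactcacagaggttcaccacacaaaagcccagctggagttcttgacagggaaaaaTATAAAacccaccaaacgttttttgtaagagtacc
*Ocln*, downstream start, chr13:100552499-100552748, minus strand: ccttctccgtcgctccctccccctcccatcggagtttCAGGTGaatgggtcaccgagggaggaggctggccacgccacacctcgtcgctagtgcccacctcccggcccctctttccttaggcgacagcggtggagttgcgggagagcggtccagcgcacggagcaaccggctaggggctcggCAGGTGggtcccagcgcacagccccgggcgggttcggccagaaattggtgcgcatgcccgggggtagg
The upstream *Cldn18* promoter held AGATAA at 146 and 131 bases before the start, once on each strand, and the downstream one held none of the capitalized motifs. Upstream of *Cldn2* there was a TATAAA at 35 bases and a TTTATG at 244 bases. The *Ocln* promoter shown held CAGGTG at 213 and 68 bases, and the upstream *Ocln* promoter, not shown, held none of the 7 motifs. Among promoters not shown, that of *Cldn4* held TGANTCA at 240 and 158 bases and CAGGTG at 14 bases, and the second *Cldn7* promoter held CAGGTG at 97 and 57 bases. None of the 7 motifs was in the 250 bases before any *Cldn12*, *Cldn3* or *Tjp1* start, or before the first *Cldn7* start. A match is a run of letters only, and the data hold no binding measurement.

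Of the 10 genes, 9 had enough reads to test (10 or more normalized read counts in 3 or more libraries). *Cldn18* was higher and *Cldn12* was lower in sgKrt19 tumors past the adjusted threshold, and the other 7 did not pass it. The 2 calls are 22.2% of the 9 tested, below the 34.0% called over all genes tested, and the median log2 fold change of the 9 was 0.097 against 0.0072 over all genes. Values of the sgScramble and sgKrt19 tumors did not overlap for *Cldn18*, *Ocln* and *Cldn12*, 2 of them higher and 1 lower in sgKrt19 tumors. Of all genes tested 41.1% did not overlap, 21.7% as higher and 19.3% as lower. With edgeR's quasi-likelihood test on recovered reads the same 2 genes were called, where 33.7% of all genes were.

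**Figure D1:**
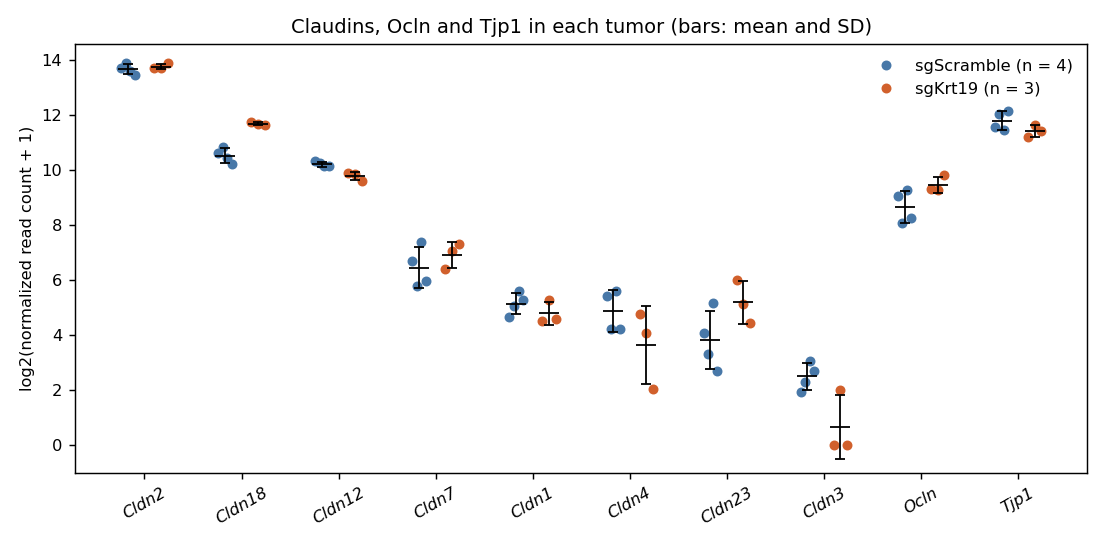
Level of each gene in each tumor as log2(normalized read count + 1) on the vertical axis, with 1 point per tumor, the 4 sgScramble tumors in blue and the 3 sgKrt19 tumors in orange, and black bars for the mean and SD of each group. *Cldn2* is the most abundant, the groups do not overlap for *Cldn18*, *Cldn12* and *Ocln*, and *Cldn3* has the lowest mean in both groups.

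*Cldn18* was the claudin that rose. It was at 1569, 1867, 1385 and 1198 normalized read counts in sgScramble tumors 1 to 4 and at 3463, 3283 and 3218 in sgKrt19 tumors 5, 6 and 8. Every sgKrt19 tumor was above every sgScramble tumor, and the 3 lay within 1.08-fold of each other. The mean went from 1505 ± 285 (SD, n = 4) to 3321 ± 127 (SD, n = 3), a ratio of 2.21 and 1.16 on the log2 scale (SE 0.145, 95% confidence interval 0.84 to 1.48, adjusted p = 0.000364, limma). Leaving out each tumor in turn gave log2 fold changes of 1.06 to 1.27, all past the threshold. Genes of the stomach lining, where claudin-18 is normally made, also differed between the groups. Of 13 gastric epithelium genes tested, 9 rose and 2 fell, where 17.9% and 16.0% of all genes tested did. Among the rises were the trefoil factors *Tff1* (2021 ± 2080 to 18872 ± 2316) and *Tff2*, the mucin *Muc5ac* and *Anxa10*. *Gkn1* (2859 ± 3876 to 11620 ± 4798, overlapping) and *Gkn2* (1973 ± 2705 to 11022 ± 2989) rose too. The falls were those of the gland mucin *Muc6* (1300 ± 741 to 57.6 ± 27.2) and *Gata6* (−0.41), and *Sox2* was not called (−0.078). Among sgScramble tumors the order differed, with *Cldn18* highest in tumor 2 and the summed gastric value highest in tumor 3 (47171). The epithelial cancer cell list rose in 9 of 13 genes tested, with a median log2 fold change of 0.86, and 3 of its 14 genes (*Cdh1*, *Elf3* and *Esrp1*) are also in other lists used here. The mean log2 value of the epithelial list ran from 11.5 to 12.5 in sgScramble tumors and from 12.0 to 12.8 in sgKrt19 tumors. Centering on it shifts every gene by that spread, so a call can be lost through a wider spread among tumors as well as a smaller difference. When each library was centered on the mean log2 value of that epithelial list, *Cldn18* was at 0.68 and lost the call (adjusted p = 0.217), where 15.0% of all genes tested were called, 2.65% as higher and 12.3% as lower. Over 18 alternatives the log2 fold change ranged from 0.68 to 1.27 and the adjusted p from 1.8e-10 to 0.217.

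*Cldn12*, an atypical claudin without the motif that binds zonula occludens proteins, fell. Its values were 1299, 1227, 1145 and 1136 in the sgScramble tumors and 950, 934 and 782 in the sgKrt19 tumors. The groups did not overlap, although the gap between them was narrow beside that of *Cldn18*. The mean fell from 1202 ± 76.8 (n = 4) to 889 ± 92.6 (n = 3), a log2 fold change of −0.44 (SE 0.114, 95% confidence interval −0.69 to −0.18, adjusted p = 0.0157, limma). Without sgKrt19 tumor 8, the lowest, the log2 fold change was −0.35 and no longer passed (adjusted p = 0.0610). It did not pass after centering on epithelial genes either, although the difference was larger there (−0.92, adjusted p = 0.0935). Over 18 alternatives the adjusted p ran from 0.00194 to 1.0, the latter in the test for a change beyond 1.5-fold.

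*Cldn2*, the pore-forming claudin, was by far the most abundant. The sgScramble tumors held 13651, 15242, 12598 and 11337 normalized read counts, and the sgKrt19 tumors 13413, 13523 and 15265. The ranges overlapped nearly throughout. Means were 13207 ± 1654 (n = 4) and 14067 ± 1039 (n = 3), a log2 difference of 0.097 (SE 0.130, adjusted p = 0.584, limma) and a 95% confidence interval of 0.875-fold to 1.31-fold. The sign of this difference turned with library size scaling alone (−0.12) and with epithelial centering (−0.38), which moved the median of all genes to −0.21 and −0.47. Relative to those shifts *Cldn2* stayed just above the median gene, and it passed the threshold under neither.

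The other claudins of the epithelial barrier were low, and their differences were within or near the spread among tumors. *Cldn7*, a basolateral claudin that binds the adhesion molecule EpCAM, was at 103, 54.3, 167 and 61.2 in sgScramble tumors and at 83.2, 134 and 158 in sgKrt19 tumors, and the groups overlapped (log2 fold change 0.47, SE 0.380, adjusted p = 0.360). *Cldn4*, a sealing claudin of pancreatic ducts and of PDA, was at 41.8, 17.8, 48.4 and 17.6 against 26.6, 16.0 and 3.15, the last of these being 3 reads (−1.23, SE 0.625, 95% confidence interval −2.62 to 0.16, adjusted p = 0.149). Tumor 8 carried most of that difference, since the log2 fold change without it was −0.44. After epithelial centering *Cldn4* passed as lower (−1.71, adjusted p = 0.0208), while over its 17 alternatives the adjusted p ran from 0.0208 to 0.895.

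*Cldn23*, a claudin of intestinal and gastric epithelium, was at 15.8, 8.89, 34.7 and 5.56 in sgScramble tumors and at 63.6, 34.0 and 21.0 in sgKrt19 tumors. The groups overlapped through sgScramble tumor 3, which was above 2 of the 3 sgKrt19 tumors. The log2 fold change was 1.39 (SE 0.567, 95% confidence interval 0.13 to 2.65, adjusted p = 0.0820), and it passed without that tumor (1.84, adjusted p = 0.0173) but under none of the other 16 alternatives, over all of which it ranged from 0.91 to 1.84 with an adjusted p of 0.0173 to 0.613. Leaving out sgKrt19 tumor 5 gave 0.98 (adjusted p = 0.277). For *Cldn1*, a sealing claudin best known from skin, the values were 24.2, 32.6, 47.5 and 38.0 against 22.0, 38.0 and 23.1, and the groups overlapped (−0.35, SE 0.310, adjusted p = 0.397).
*Cldn3*, a sealing claudin of many simple epithelia, was too low to test, with 3, 4, 8 and 6 reads in the sgScramble libraries and 0, 3 and 0 reads in the sgKrt19 libraries. A count of 0 allows up to 3 reads, here normalized values of 3.47 in tumor 5 and 3.15 in tumor 8, so no fold is given. These floors and read counts cover counting error only.

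*Ocln*, the membrane protein of the junction strands, was at 542, 272, 618 and 307 normalized read counts in the sgScramble tumors and at 639, 626 and 900 in the sgKrt19 tumors. All sgKrt19 tumors were above all sgScramble tumors, but sgScramble tumors 1 and 3 came close. The mean was 435 ± 171 (n = 4) against 722 ± 154 (n = 3), a log2 fold change of 0.80 (SE 0.283, 95% confidence interval 0.17 to 1.43), and the adjusted p of 0.0521 (limma) missed the threshold. DESeq2 on the recovered reads passed it (0.72, adjusted p = 0.0359), as did limma without sgScramble tumor 1 (0.93, adjusted p = 0.0355) or 3 (0.996, adjusted p = 0.0161), and over 18 alternatives the adjusted p ran from 0.0161 to 1.0.

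*Tjp1*, the scaffold that binds claudin and occludin tails, had values of 3038, 4263, 2820 and 4575 in sgScramble tumors and 2372, 3233 and 2786 in sgKrt19 tumors. The groups overlapped, and the sgScramble tumors that were low for *Tjp1* were the pair that was high for *Ocln*. The mean was 3674 ± 874 against 2797 ± 430, a log2 fold change of −0.37 (SE 0.185, 95% confidence interval −0.79 to 0.038, adjusted p = 0.140). None of 18 alternatives called it.

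**Figure D2:**
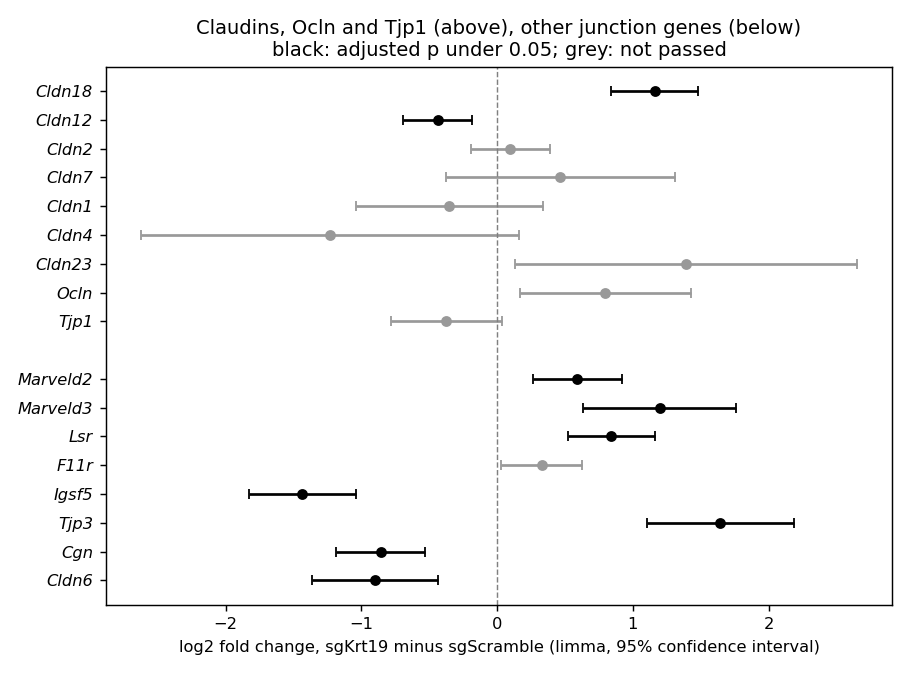
The log2 fold change of each gene, sgKrt19 minus sgScramble, on the horizontal axis, with 95% confidence intervals from limma, black where the adjusted p was under 0.05 and grey where it was not. In the upper block only *Cldn18* (1.16) and *Cldn12* (−0.44) are black, and in the lower block *Tjp3* (1.65) and *Igsf5* (−1.44) lie farthest from 0.

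Levels of different genes were compared as normalized read counts per kilobase of exon. In sgScramble tumors *Cldn2* stood at 3972 ± 497 per kilobase, followed by *Tjp1* (470), *Cldn18* (338), *Cldn12* (284), *Ocln* (103), *Cldn7* (49.5), *Cldn4* (17.3), *Cldn23* (8.79), *Cldn1* (7.35) and *Cldn3* (3.89). The ranges of neighbors in this order overlapped for *Tjp1* and *Cldn18*, *Cldn18* and *Cldn12*, *Ocln* and *Cldn7*, and each neighboring pair from *Cldn4* to *Cldn3*. In sgKrt19 tumors *Cldn2* was again first at 4231 ± 312 per kilobase, but *Cldn18* (745) was above *Tjp1* (358) in all 3 tumors, with no overlap, whereas *Tjp1* was above *Cldn18* in all 4 sgScramble tumors. *Cldn12* (210) and *Ocln* (171) followed with overlapping ranges, then *Cldn7* (64.1), *Cldn23* (21.4), *Cldn4* (8.40) and *Cldn1* (5.72), with *Cldn23* overlapping *Cldn4* and *Cldn4* overlapping *Cldn1*, and *Cldn3* last (0.794).

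The make-up of the claudin transcripts was taken as each claudin's share of the summed level per length of the 11 claudins that passed the filter. *Cldn2* held 68.9% ± 1.97 of it in sgScramble tumors and 69.0% ± 5.48 in sgKrt19 tumors. *Cldn18* held 5.91, 6.52, 5.46 and 5.43% in the sgScramble tumors and 12.2, 12.5 and 11.7% in the sgKrt19 tumors, a difference of 6.32 percentage points without overlap. *Cldn6*, an embryonic claudin outside the 10 genes, moved the other way, from 14.7% ± 0.633 to 7.64% ± 2.47, and was lowest in sgKrt19 tumor 8 at 4.81%. The share of *Cldn12* went from 4.97% to 3.43%, also without overlap. For *Cldn18*, *Cldn6* and *Cldn12* the exact two-sided permutation p was 0.0571, the smallest that the 35 splits of 4 against 3 tumors allow, and the value adjusted over 11 shares was 0.210, so this design could not reach the threshold. The share of *Cldn2* differed by 0.0708 points (exact permutation p = 0.914), and its sign turned without sgScramble tumor 3 (−0.726 points) or sgKrt19 tumor 8 (−2.64 points).

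**Figure D3:**
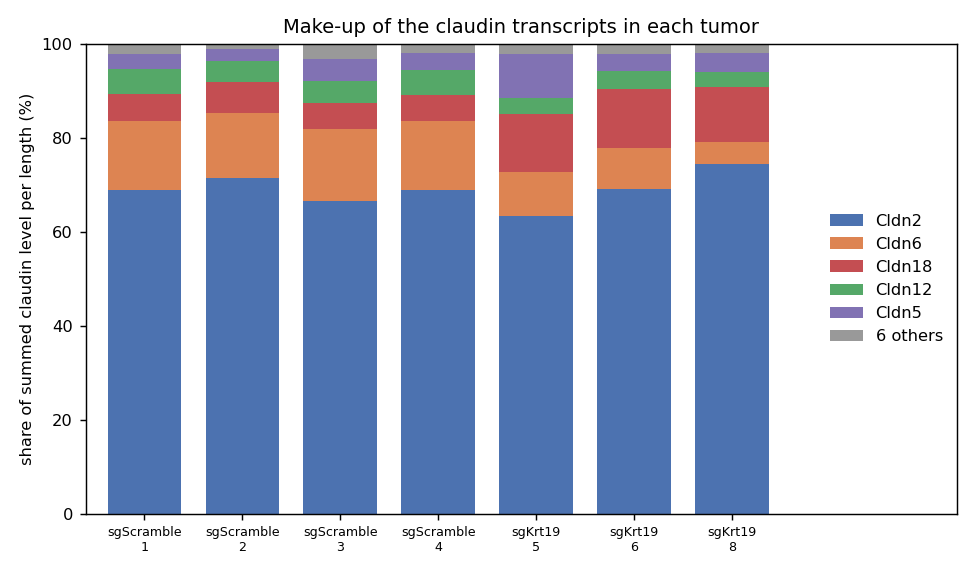
Each bar is 1 tumor and the vertical axis is the share (%) of the summed claudin level per length held by each of the 5 largest claudins and by 6 others together. *Cldn2* fills about the same part of every bar, between 63.5 and 74.4%, while the *Cldn18* part is 11.7 to 12.5% in sgKrt19 tumors against 5.43 to 6.52% in sgScramble tumors.

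Of 19 further claudin family names, 15 were in the table and 5 passed the filter. *Cldn6* fell, from 1451 ± 131 to 807 ± 264 (log2 fold change −0.90, SE 0.209, adjusted p = 0.00942, limma), with 1016, 894 and 510 in sgKrt19 tumors 5, 6 and 8, and without tumor 8 the log2 fold change was −0.60. None of the 5 passed as higher in limma, and 0 of them were higher at an unadjusted p under 0.05. *Cldn5*, the claudin of endothelium, was at 849 in sgKrt19 tumor 5 and at 228 to 369 in the other 6 tumors (0.70, SE 0.322, adjusted p = 0.117). In sgKrt19 tumors 5, 6 and 8 *Cldn5* was at 849, 299 and 354. The summed endothelial markers there were 10268, 8630 and 10354, and their part in *Cldn5* was not tested. *Cldn15* (−0.42, adjusted p = 0.202), *Cldn10* (−0.016, adjusted p = 0.979) and *Cldnd1* (−0.14, adjusted p = 0.377) were not called.

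Other membrane proteins of the junction and its surroundings gave 3 genes that rose and 1 that fell among 11 tested. Over all genes tested 34.0% were called, 17.9% as higher and 16.0% as lower. *Marveld2* (tricellulin) and *Marveld3* are the relatives of occludin. *Marveld3* was at 352, 248, 431 and 229 in sgScramble tumors and at 568, 615 and 985 in sgKrt19 tumors, without overlap (1.20, SE 0.254, adjusted p = 0.00606, limma). *Marveld2*, which sits where the corners of cells meet and lies 43239 bases from *Ocln* on the same strand with no protein-coding gene between, went from 565 ± 96.9 to 843 ± 51.3 (0.59, SE 0.147, adjusted p = 0.0130). Beside them the log2 fold change of *Ocln* was 0.80. *Lsr*, which brings tricellulin to those corners, went from 3641 ± 631 to 6470 ± 629 (0.84, SE 0.145, adjusted p = 0.00205). All 3 lost the call after epithelial centering (*Marveld3* 0.72, *Marveld2* 0.11 and *Lsr* 0.36), and *Marveld2* also with library size scaling alone (0.37, adjusted p = 0.0824). *Igsf5*, a junctional adhesion molecule that binds a scaffold of the plaque, fell from 535, 388, 590 and 388 to 175, 170 and 171 (−1.44, SE 0.177, adjusted p = 0.000342), past the threshold in each of 18 alternatives. The 7 others were not called, namely *F11r* (0.33, adjusted p = 0.0839), *Jam2* (0.23), *Jam3* (0.17), *Crb3* (0.077), *Cxadr* (−0.16), *Ildr1* (−0.14) and *Ildr2* (−0.15).

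Of the proteins on the inner face of the junction and the polarity complexes that place it, 24 were tested, 1 rose and 11 fell. Of all genes tested 17.9% rose and 16.0% fell. *Tjp3* (zonula occludens-3), a relative of *Tjp1*, was at 875, 617, 1101 and 566 in sgScramble tumors and at 1875, 2281 and 3165 in sgKrt19 tumors (1.65, SE 0.244, adjusted p = 0.000906, limma). Beside it *Tjp1* was at −0.37 and not past the threshold, and the difference between these genes was not tested. The largest falls were those of the polarity gene *Pard6g* (169 ± 22.1 to 64.1 ± 13.0, log2 fold change −1.39), the multi-PDZ scaffold *Mpdz* (617 ± 176 to 253 ± 22.6, −1.24) and the angiomotin gene *Amot* (1017 ± 179 to 469 ± 30.6, −1.10), with adjusted p of 0.000739, 0.00202 and 0.000578. The other 8 that fell were *Cgn*, *Magi1*, *Magi2*, *Magi3*, *Mpp5*, *Amotl1*, *Arhgef2* and *Sympk*, at −0.96 to −0.34. In the adherens junction, which lies below the tight junction, 1 of 10 genes rose and 2 fell. E-cadherin (*Cdh1*) went from 25991 ± 1376 to 38248 ± 3824 (0.55, adjusted p = 0.0101), a call lost after epithelial centering (0.075). *Cdh1* is itself in the epithelial list, so the centering takes out part of its own change. Plakoglobin (*Jup*, −0.38) and *Nectin3* (−0.73) fell.

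Among transcription factors and splicing factors known to act on epithelial junction genes, 5 of 20 tested rose and 5 fell, where 17.9% and 16.0% of all genes tested did. The rises were those of *Cdx2*, an intestinal homeobox factor (133 ± 16.6 to 455 ± 71.4, log2 fold change 1.77), the epithelial ETS factors *Ehf* (2179 ± 145 to 6554 ± 1215, 1.57) and *Elf3* (4221 ± 1014 to 11243 ± 374, 1.45), and *Klf4* (1446 ± 327 to 3825 ± 185, 1.43) and *Klf5* (0.37). Those that fell included the mesenchymal factors *Twist1* (1055 ± 25.8 to 513 ± 96.9, −1.06), *Zeb2* (−0.84), *Snai1* (−0.80) and *Snai2* (−0.65). The adjusted p of these 9 was 5.41e-05 to 0.0223 (limma). *Elf3* is itself in the epithelial list, so epithelial centering takes out part of its own change. After that centering *Elf3* (0.97, adjusted p = 0.0546) and *Klf4* (0.95, adjusted p = 0.0726) lost their calls, and so did *Twist1* in the test beyond 1.5-fold (adjusted p = 0.0518). Over their 18 alternatives each the adjusted p ran up to those values. *Klf5*, *Zeb2*, *Snai1* and *Snai2* were named after their values were seen. Of skin keratinocyte markers, for which a subcutaneous tumor was also checked, 2 of 7 tested rose and 1 fell, and their summed value was 806 to 905 in sgKrt19 tumors against 418 to 741 in sgScramble tumors. *Ivl* (169 ± 80.3 to 467 ± 113, adjusted p = 0.00890) and *Krt15* (17.5 ± 4.10 to 44.0 ± 16.1, adjusted p = 0.0192) rose and *Lor* (24.7 ± 9.76 to 8.41 ± 5.02, adjusted p = 0.0262) fell. Over the 7 tumors *Krt10* was at 124 to 180 normalized read counts, *Sbsn* at 67.0 to 205, *Krt14* at 18.9 to 70.3, *Trp63* at up to 15.8 and *Krt5* at 0 to 14.7, none of them called, and *Krt5* was too low to test. *Krt15*, *Lor*, *Krt10*, *Sbsn*, *Krt14*, *Trp63* and *Krt5* were named after their values were seen.

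Several of the genes also varied within the control group, and the same pair of tumors stood out. In sgScramble tumors 1 and 3 the values of *Cldn4*, *Cldn7*, *Cldn23* and *Ocln* were all above those in tumors 2 and 4, and *Marveld3*, *Lsr* and *Tjp3* had the same order. *Tjp1* had the reverse order, and *Cldn1*, *Cldn2*, *Cldn3*, *Cldn12* and *Cldn18* had neither. The coefficient of variation among sgScramble tumors was 51.1% for *Cldn4*, 53.7% for *Cldn7*, 80.2% for *Cldn23* and 39.4% for *Ocln*, against a median of 14.95% over all genes tested, whereas it was 6.39% for *Cldn12* and 12.5% for *Cldn2*. The same order was seen in the general epithelial genes *Epcam* (1273, 376, 1588 and 402) and *Esrp1* (134, 44.5, 225 and 39.9), which were named after their values were seen. Within the epithelial list *Cdh1* had the reverse order (24121, 26890, 25805 and 27150) and *Krt20* had neither (7794, 8016, 7438 and 5790). All other genes of that list had the order of *Epcam*. The mean log2 value of the epithelial list was 12.3 and 12.5 in tumors 1 and 3 and 11.6 and 11.5 in tumors 2 and 4, and its part in the spread of the junction genes was not tested. Among sgKrt19 tumors, tumor 8 had the lowest *Cldn4*, *Cldn23*, *Cldn12*, *Epcam* (322) and *Esrp1* (8.40) and the highest *Cldn2*, *Cldn7*, *Ocln*, *Marveld3* and *Tjp3*. The epithelial list was split in this tumor. *Krt8*, *Krt18*, *Krt20*, *Prom1* and *Elf3* were highest there among sgKrt19 tumors, whereas *Krt7*, *St14*, *Muc1*, *Spint1* and *Cdh1* were lowest. The summed value of the list was highest there (333619) and its mean log2 value lowest (12.0). Apart from *Elf3* and *Cdh1* these genes were named after their values were seen.

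**Figure D4:**
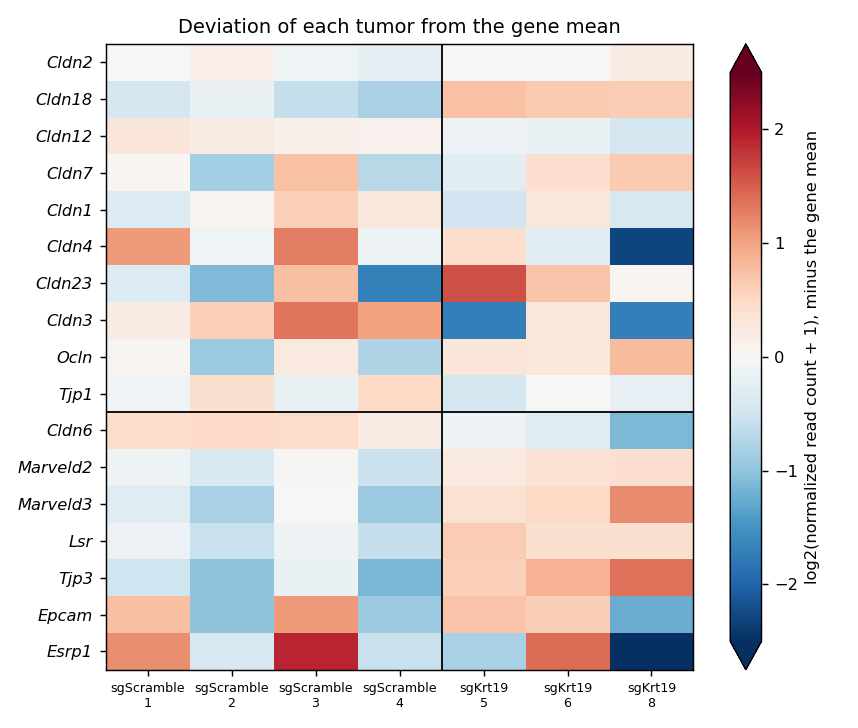
Each cell is 1 gene (rows) in 1 tumor (columns), colored by log2(normalized read count + 1) minus the mean of that gene over the 7 tumors, red above and blue below, with the 10 tight junction genes above the horizontal line and related genes below it. *Cldn18* is below its mean in all 4 sgScramble tumors (−0.81 to −0.17) and above it in all 3 sgKrt19 tumors (0.62 to 0.72), and sgScramble tumors 1 and 3 differ from 2 and 4 in *Cldn4*, *Cldn7*, *Cldn23* and *Ocln*.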

How the data were processed

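RNA of 7 subcutaneous tumors was sequenced (TruSeq kit, poly-A RNA per the labels). The study's methods instead name a TruSeq guide for stranded total RNA, so how the RNA was selected is not settled here. The authors counted reads per gene, divided them by 1 size factor per library and deposited the resulting signal, 1 column per tumor and 38026 genes. The genome build was mm10 per the submitters' processing notes, and the aligner, the counting program and the annotation are not given in the sources used here. Dividing each column by its smallest step gave whole reads (tolerance 0.05, 100% of values), 40781199 to 44972100 a library, with a floor of 3 reads at 2.74 to 3.47 in normalized value. Of the gene identifiers, 37167 (97.74%) matched GENCODE M21, which gave positions and exon lengths.

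Groups came from the labels, and no column was left unused. Values were tested with limma 3.58.1 (R 4.3.3) with trend on log2(value + 1), over the 21322 genes that reached 10 in 3 or more libraries, with all 7 libraries and no covariate, with Benjamini-Hochberg adjustment and a threshold of 0.05. Fold changes are on that log2 scale and understate changes of low genes. The files held normalized values rather than raw counts, so the count tests edgeR 4.0.16 (7188 genes called) and DESeq2 1.42.0 (7971 called) on recovered reads were alternatives. Others were scaling, pseudocount (0.5 and 10), filter, trend, a test beyond 1.5-fold and leaving out each tumor. Claudin shares were tested by an exact permutation over 35 splits. The fits were tested on simulated data.

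The 10 genes, the other lists and the tests were chosen with earlier results of these data known. Named besides the 10 genes were *Krt19* and all tested further claudins and membrane partners. From other lists came called genes with a log2 change of 1 or more in size and a mean of 100 or more. At most 5 a direction were named, and *Anxa10* was named outside this rule. Marker lists of muscle, leukocytes, endothelium and fibroblasts were given as summed ranges. Others were named after their values were seen, and some items are not reported here. The labels and methods name no batch, so none could be examined. P-values set each group difference against the spread between these tumors. They do not cover differences between separately edited cell populations.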

Additional observations from a re-analysis of the deposited data

Results flagged for a closer look

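In 2 of 39 sets of 4 sgScramble values searched, 1 tumor lay far from the others by Dixon's criterion, which chance meets in about 1 of 20 sets. For *Cldn6* the lowest sgScramble tumor (4) was at 1256 normalized read counts, with the others at 1496 to 1537. The summed value of the skeletal muscle markers was 3533 in sgScramble tumor 3 and at most 382 in the other 3.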

How the results depend on the processing

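No paired analysis was possible because the groups share no replicate number (1 to 4 against 5, 6 and 8). The count of the 10 genes called higher (1) was 2 with DESeq2 on recovered reads, 0 after epithelial centering (limma, 0 at an unadjusted p under 0.05), and 1 to 3 when each tumor was left out (2 without sgScramble tumor 1, 3 without sgScramble tumor 3). The count called lower (1) was 2 without the filter on low values, the second being *Cldn3*, 0 in the test beyond 1.5-fold (limma, 0 at an unadjusted p under 0.05), and 0 to 1 when each tumor was left out (0 without sgKrt19 tumor 8). With library size scaling alone 2 further claudins, 2 endothelial genes and 1 fibroblast gene were called, and edgeR also called 1 fibroblast gene. Leaving out each tumor gave 1 to 4 skin genes (1 without sgKrt19 tumor 6 or 8), 2 to 8 endothelial genes (3 without sgScramble tumor 2 or sgKrt19 tumor 5, 2 without sgKrt19 tumor 8) and 0 to 2 fibroblast genes (2 without sgScramble tumor 1). The difference of the *Cldn2* share was −2.88 points when not divided by length and −2.64 to 2.84 points when each tumor was left out, and that of *Cldn10* was −0.028 to 0.0069 points. The log2 fold change of *Cldn2* turned to −0.12 with library size scaling alone and to −0.38 after epithelial centering, and that of *Cldn7* to −0.013 after epithelial centering. In the test beyond 1.5-fold *Cldn6*, *Marveld2*, *Marveld3*, *Lsr*, *Mpdz*, *Twist1* and *Cdh1* also lost their calls. The cause was not tested. Low counts limited *Cldn1*, *Cldn3*, *Cldn4* and *Cldn23*, at 0 to 55 reads a library.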
